A study of Mus musculus with 947 samples.

Results

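The miR-17-92 and miR-106b-25 clusters are a pair of paralogous microRNA (miRNA) clusters of the mouse, and their 9 guide-strand miRNAs were taken by name from the small RNA tables of the series. They were 9 of the 1076 miRNAs in the aging table and 9 of the 795 miRNAs in the parabiosis table. The 6 members of miR-17-92 were mmu-miR-17-5p, mmu-miR-18a-5p, mmu-miR-19a-3p, mmu-miR-20a-5p, mmu-miR-19b-3p and mmu-miR-92a-3p, and the 3 members of miR-106b-25 were mmu-miR-106b-5p, mmu-miR-93-5p and mmu-miR-25-3p. Small RNA was sequenced from 769 libraries of 16 tissues of C57BL/6JN males (553 libraries) and virgin females (216 libraries), perfused with PBS, at 10 ages from 1 to 27 months, with males only at 24 and 27 months. A further 176 libraries came from 6 tissues of male mice joined by parabiosis for 5 weeks, a surgery that gives the partners a shared circulation, and the strains named included C57BL/6JN and C57BL/6J. Isochronic young mice (IY) were 3 or 4.5 months old and joined to a mouse of the same age, heterochronic young mice (HY) were 4 months old and joined to a 19-month-old partner, heterochronic aged mice (HA) were those 19-month-old partners, and isochronic aged mice (IA) were 19 months old and joined to each other. Every tissue was a bulk lysate, so that fewer cells of a type and less RNA per cell cannot be told apart in any value below.

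miRNAs are short RNAs that guide Argonaute proteins to messenger RNAs through the seed near their 5′ end, and members of a family with the same seed share most of their predicted targets. The miR-17-92 cluster is a transcriptional target of MYC and E2F factors, it is needed for the survival of early B cells and for lung and heart development, and it was named an oncogenic cluster because its overexpression speeds lymphoma in mice. The miR-106b-25 cluster lies within a gene of the DNA replication helicase, and both clusters are known for high levels in dividing and blood-forming cells.

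All 9 members were matched to a RefSeq mature sequence of the GRCm38.p6 (mm10) annotation, and they are printed because their seeds (bases 2 to 8, in capitals) decide which members can be read as a family. The seed AAAGUGC was shared by 4 members from both clusters.
mmu-miR-17-5p: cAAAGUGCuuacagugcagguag
mmu-miR-20a-5p: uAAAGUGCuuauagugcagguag
mmu-miR-106b-5p: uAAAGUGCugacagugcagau
mmu-miR-93-5p: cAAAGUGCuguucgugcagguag
The seed AAGGUGC was carried by 1 member, mmu-miR-18a-5p, and the seed GUGCAAA by both miR-19 miRNAs.
mmu-miR-18a-5p: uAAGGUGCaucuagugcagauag
mmu-miR-19a-3p: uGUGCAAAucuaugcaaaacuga
mmu-miR-19b-3p: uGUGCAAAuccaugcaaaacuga
The seed AUUGCAC was shared by the last member of each cluster.
mmu-miR-92a-3p: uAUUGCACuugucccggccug
mmu-miR-25-3p: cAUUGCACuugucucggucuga
The miR-17-92 mature sequences lay within 813 bases at chr14:115043684-115044496 on the plus strand, in exon 2 of the noncoding transcript Mir17hg. The miR-106b-25 mature sequences lay within 476 bases at chr5:138165332-138165807 on the minus strand, in intron 13 of Mcm7, which encodes a subunit of the replication helicase. Some sequences differed by few bases, and the authors' counting allowed 1 mismatch. Counted from 1 at the 5′ end, mmu-miR-19a-3p and mmu-miR-19b-3p differed by U11C alone, and mmu-miR-17-5p differed from mmu-miR-20a-5p by C1U and C12U. A paralogous cluster, miR-106a-363, holds close relatives at chrX:52741697-52742563 on the minus strand.
mmu-miR-106a-5p: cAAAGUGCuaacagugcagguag
mmu-miR-20b-5p: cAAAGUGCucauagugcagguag
These are shown because mmu-miR-106a-5p differed from mmu-miR-17-5p by U10A alone, so that reads of this pair, and of the miR-19 pair, could be split between names by the counting. The sequences of mmu-miR-19b-3p and mmu-miR-92a-3p also occur in the X-linked cluster, and reads from both sources cannot be told apart.

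Values are reads per 1000000 mapped reads (rpmm). A library held between 2.29 and 167 M mapped reads (M, 1000000 reads) in the aging cohort, with a median of 20.1 M, and between 9.2 and 47.6 M in the parabiosis cohort. The tissue labels were compared with lists of tissue miRNAs, and 8 of 10 lists were highest in their own tissue. The kidney list was highest in small intestine and the marrow list was highest in spleen. The miRNA profile of 11 aging libraries and 3 parabiosis libraries was closest to the median profile of a tissue other than their own, most of them between fat depots. All 9 members were above 0 in every library and passed the low-value filter in every tissue of both cohorts.

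Bone marrow held the highest level of 8 of the 9 members, and brain held the lowest level of 7. The Kruskal-Wallis statistic over the 16 tissues passed for all 9 members (permutation test with 100000 shuffles, adjusted p = 1e-05, the smallest they can give), as it did for 885 of 885 miRNAs tested (100%), so that passing this test was not particular to the clusters. The share of the variance of ranks that lay between tissues ran from 0.61 for mmu-miR-19b-3p to 0.83 for mmu-miR-18a-5p.

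The medians of mmu-miR-17-5p, the first miRNA of its cluster, were 1560 rpmm in marrow, 1041 in spleen, 667 in small intestine, 525 in kidney, 490 in lung, 439 in skin, 355 in liver and 344 in bone. They were 320 rpmm in subcutaneous fat (SCAT), 276 in gonadal fat (GAT), 193 in heart, 190 in mesenteric fat (MAT), 160 in brown fat (BAT), 126 in pancreas, 119 in limb muscle and 97.6 in brain. Marrow and spleen stood apart from the next tissue by their interquartile ranges (1347 to 2030 rpmm in marrow, 783 to 1303 in spleen, 579 to 778 in small intestine), and all later neighbours in the order overlapped. The marrow libraries ranged from 696.5 to 3826 rpmm (n = 56), and the median in marrow was 16.0 times that in brain (n = 51).

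mmu-miR-18a-5p, the member with a seed of its own in these clusters, had the widest span, with 1375 rpmm in marrow (interquartile range 1191 to 1557) and 30.5 in brain (23.9 to 39.2), which is 45.1-fold. It was second highest in small intestine (742 rpmm), above spleen (604 rpmm), although these ranges overlapped, and bone (305 rpmm) came next. The other members spanned from 9.61-fold for mmu-miR-19b-3p (597 rpmm in marrow, 62.1 in brain) to 22.8-fold for mmu-miR-19a-3p (185 rpmm in spleen, 8.11 in brain). The interquartile range of marrow lay above that of the next tissue for 7 members, and it overlapped that of spleen for mmu-miR-19a-3p and mmu-miR-19b-3p. mmu-miR-20a-5p and mmu-miR-93-5p were the most abundant, with 2855 and 2825 rpmm in marrow, 1861 and 1429 in spleen, and 134 and 351 in brain. Pancreas was lowest for mmu-miR-106b-5p (95.5 rpmm against 1721 in marrow), and limb muscle was lowest for mmu-miR-93-5p (218 rpmm). The plot of median levels by tissue gives all 144 medians.

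**Figure D1:**
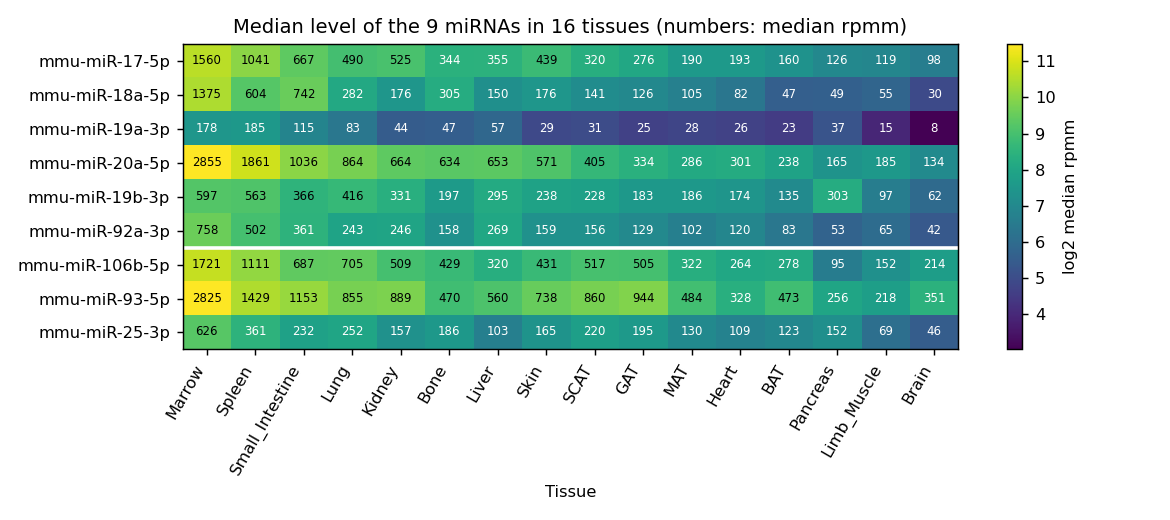
Median rpmm of the 9 miRNAs (rows, with the 6 of miR-17-92 above the line) in 16 tissues (columns, ordered by mean log2 level), coloured on a log2 scale. Marrow and spleen are the brightest columns, with mmu-miR-20a-5p at 2855 and 1861 rpmm, and brain is the darkest for miR-17-92, with mmu-miR-19a-3p at 8.11 rpmm.

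As a share of all miRNA reads, the 9 members made up 5.92% in marrow (median of libraries), 2.99% in spleen, 1.60% in bone, 1.38% in small intestine and 1.15% in skin. The share was lowest in brain (0.169%) and in limb muscle (0.154%). In marrow miR-17-92 took 3.58% and miR-106b-25 took 2.42%, a ratio of summed levels of 0.698. In the aging cohort the sum of miR-106b-25 exceeded that of miR-17-92 in brain and in the fat depots. The ratio was 1.5 in brain and GAT, 1.26 in SCAT, 1.19 in BAT and 1.08 in MAT. In the parabiosis cohort it was 1.065 in GAT and 0.642 in MAT. The 4 members with the AAAGUGC seed summed to 8771 rpmm in marrow and 633.6 rpmm in pancreas, and they were the largest seed family of the clusters in each of the 16 tissues. The passenger arms were much lower, with marrow medians of 92.7 rpmm for mmu-miR-17-3p and 110 rpmm for mmu-miR-106b-3p. The members of miR-106a-363 were also lower, and the highest of them was mmu-miR-20b-5p (103.5 rpmm in spleen, 84.3 in marrow and 77.2 in kidney).

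Across the 16 tissue medians on the log2 scale, the means of both clusters followed each other (Pearson r = 0.92), which is a description over 16 points that share the depth and scaling of their libraries. Among 471 other miRNAs, the patterns most like that of miR-17-92 were mmu-miR-15b-5p (r = 0.94), mmu-miR-5099 (0.92), mmu-miR-15b-3p (0.92), mmu-miR-142a-3p (0.90) and mmu-miR-142a-5p (0.89). The patterns most like that of miR-106b-25 were mmu-miR-15b-3p (0.95), mmu-miR-15b-5p (0.93), mmu-miR-142a-3p (0.90), mmu-miR-374b-5p (0.89) and mmu-miR-142a-5p (0.88). The miR-142 arms are known as miRNAs of white blood cells, and both were highest in spleen. Within the clusters the likeness was greatest between mmu-miR-17-5p and mmu-miR-20a-5p (r = 0.99) and least between mmu-miR-19b-3p and mmu-miR-106b-5p (r = 0.69).

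Members of the same cluster did not keep the same ratio in every tissue. Reads of mmu-miR-19b-3p and mmu-miR-92a-3p can also come from the X-linked cluster, so their ratios may not be between miRNAs of 1 transcript. A ratio within a library does not depend on the scaling of that library, and it was taken as a log2 difference of rpmm + 1. The difference between miRNAs also carries any difference in how well each was ligated, which was not tested, so only its change between tissues is described. The log2 ratio of mmu-miR-19b-3p to mmu-miR-17-5p had a median of -1.36 in marrow and of 1.22 in pancreas. Pancreas thus had more reads of mmu-miR-19b-3p (303 rpmm) than of mmu-miR-17-5p (126 rpmm), and marrow fewer (597 against 1560 rpmm). For miR-106b-25, the log2 ratio of mmu-miR-25-3p to mmu-miR-106b-5p ran from -2.32 in brain to 0.69 in pancreas. That of mmu-miR-18a-5p to mmu-miR-17-5p ran from -1.56 in brain to 0.16 in small intestine. The ratio of mmu-miR-20a-5p to mmu-miR-17-5p was the steadiest, with tissue medians between 0.34 and 0.85. Between the clusters, the log2 ratio of mmu-miR-92a-3p to mmu-miR-25-3p, which share a seed, ran from -1.58 in pancreas to 1.47 in liver. In pancreas 32 of 45 libraries were under 10 M reads, and the members' rho with depth ran from -0.18 to 0.62. The part of depth in the pancreas ratios was not tested.

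**Figure D2:**
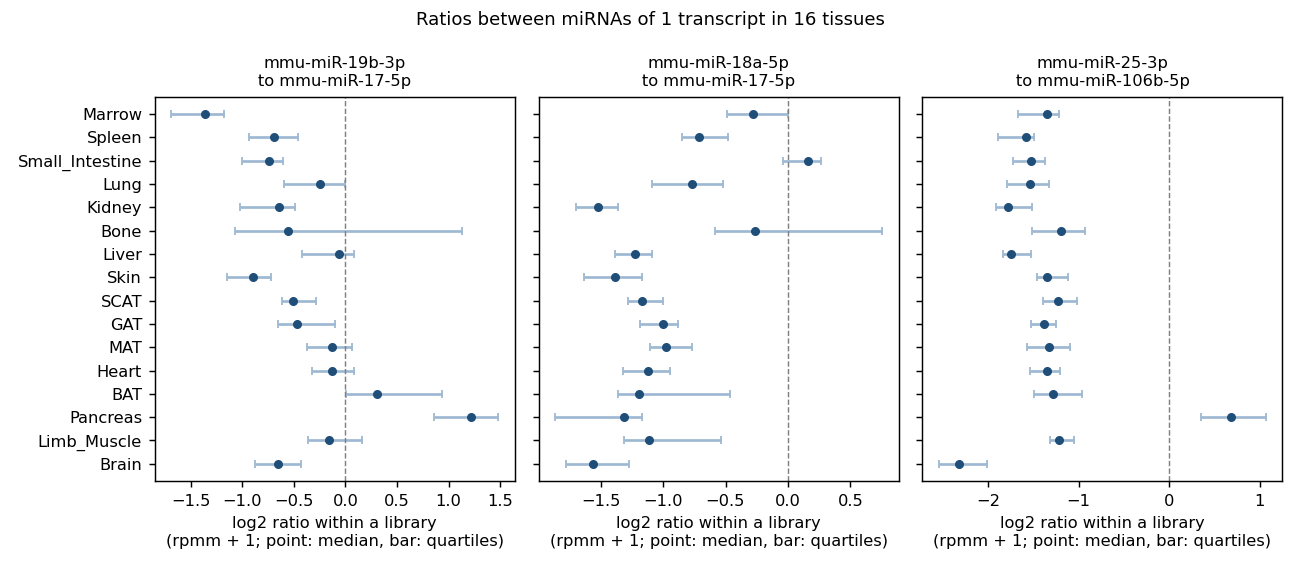
Log2 ratio within a library (x axis, rpmm + 1) of mmu-miR-19b-3p to mmu-miR-17-5p, of mmu-miR-18a-5p to mmu-miR-17-5p and of mmu-miR-25-3p to mmu-miR-106b-5p in 16 tissues (y axis), with points at the median and bars over the quartiles. The first ratio is highest in pancreas (1.22) and lowest in marrow (-1.36), and the last is highest in pancreas (0.69) and lowest in brain (-2.32). Reads of mmu-miR-19b-3p can also come from the X-linked cluster, and 32 of 45 pancreas libraries were under 10 M reads.

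Bone had the widest spread of these ratios, and it followed the numbers in the library titles. In the 11 bone libraries numbered 13 to 24 the median of mmu-miR-19a-3p was 545 rpmm and its log2 ratio to mmu-miR-17-5p was 0.80, whereas the medians of the other sets of 12 numbers lay between -3.21 and -2.49. The median of mmu-miR-17-5p was 360 rpmm in that set and between 281 and 381 rpmm in the others, and the median depth was 11.8 M reads against 18.4 to 25.3 M. The ratio of mmu-miR-18a-5p to mmu-miR-17-5p moved with it (1.30 against -0.62 to -0.21). In spleen, the 8 libraries numbered 49 to 60 had a median mmu-miR-25-3p of 83.1 rpmm, against 170 to 461 rpmm in the other sets, and a log2 ratio to mmu-miR-106b-5p of -2.67 against -1.78 to -1.47. What these sets of numbers stand for is not given in the sources used here, and their part in the results on age is covered by the fits with the sets as a term.

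In the 6 tissues of the parabiosis cohort, with all groups pooled, kidney was highest for 7 members and limb muscle lowest for 8. mmu-miR-17-5p had medians of 528 rpmm in kidney (381 to 1266, n = 29), 327 in MAT (108 to 865, n = 27), 285 in GAT (145 to 816, n = 30), 197 in liver (74.0 to 473), 188 in heart (110 to 454) and 116 in limb muscle (92.8 to 235). By their interquartile ranges all neighbours in this order overlapped except heart (163 to 207.5 rpmm) and limb muscle (107 to 129 rpmm).

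No member correlated with age beyond the threshold of the study, a Spearman rho above 0.5 or below -0.5, in any of the 16 tissues. Of 144 pairs of a member and a tissue, 0 passed, against 3.75% of all 8849 miRNA and tissue pairs that rose and 4.31% that fell. The extremes were 0.49 for mmu-miR-25-3p in BAT and -0.47 for mmu-miR-19a-3p in SCAT. By the adjusted permutation p (100000 shuffles, two-sided, under 0.05 within the tissue) 13 pairs rose and 8 fell, against 9.71% and 8.2% of all pairs. These p-values come from shuffling age over all libraries of a tissue. The linear-model (limma) p-values below use a spread pooled over the groups of a fit. Both take each library as independent, joined parabiosis partners included.

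In BAT, 7 members rose with age by that p-value, all but mmu-miR-19a-3p and mmu-miR-20a-5p, against 40.1% of the miRNAs of that tissue, and the median rho of the 9 was 0.45 (n = 31). Few BAT libraries were young, with 1 at 1 month, 2 at 3 months and 1 at 6 months. Those of 1 and 3 months were all female and those of 24 and 27 months all male, so that sex and age cannot be told apart between them. The median over all miRNAs of BAT was 0.39, and the summed miRNA reads of a library rose with age as well (rho = 0.54). After scaling to the miRNA reads of the library, the median of the members was 0.26 and that of all miRNAs 0.13. The members were also lower in shallow BAT libraries. The summed level of the 9 had a median of 206.6 rpmm in the 13 libraries under 10 M reads and of 2014 rpmm in the other 18, while summed miRNA reads had medians of 175500 and 349500 rpmm, and the members' rho with depth was between 0.50 and 0.69. Depth itself had a rho with age of 0.31, and its part in the rise was not tested beyond leaving out the shallow libraries, which left a median rho of 0.39.

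In MAT, 5 members rose by the adjusted p, against 20% of its miRNAs, namely mmu-miR-17-5p (rho = 0.46), mmu-miR-20a-5p (0.47), mmu-miR-92a-3p (0.46), mmu-miR-93-5p (0.45) and mmu-miR-25-3p (0.48). The median of the 9 was 0.45 against 0.16 over all 591 miRNAs of the tissue (n = 47), and 0.38 without the 4 libraries closest to another tissue. White blood cell miRNAs moved the same way in MAT, with a rho of 0.71 for mmu-miR-150-5p, a lymphocyte miRNA, 0.54 for each arm of miR-142a and 0.38 for the myeloid mmu-miR-223-3p, and their part was not tested. In lung mmu-miR-20a-5p rose (rho = 0.39), against 9.11% of lung miRNAs.

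In spleen 4 members fell with age by the adjusted p, against 17.7% of its miRNAs, namely mmu-miR-18a-5p, mmu-miR-20a-5p, mmu-miR-19b-3p and mmu-miR-92a-3p, each with a rho of -0.38 (n = 55). The median level of mmu-miR-20a-5p was 2452 rpmm at 1 month, 2018 at 3 months and 1537 at 27 months. In marrow mmu-miR-93-5p (rho = -0.42) and mmu-miR-25-3p (-0.37) fell, against 6.39% of its miRNAs. Their medians were 3535 and 929 rpmm at 1 month, 3095 and 721 rpmm at 3 months, and 2122 and 518 rpmm at 27 months. Both blood-forming tissues thus had negative rho values for all 9 members, with medians of -0.33 in spleen and -0.26 in marrow against -0.12 and -0.04 over all their miRNAs, and all 9 stayed negative there under miRNA-read and median-ratio scaling. The white blood cell miRNAs did not pass in spleen or marrow, with rho between -0.20 and 0.23. mmu-miR-19a-3p fell in SCAT (rho = -0.47, against 23.7% of its miRNAs) and mmu-miR-18a-5p fell in limb muscle (-0.40, against 26%).

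Pancreas depended on the depth of its libraries. No member passed there by either rule with all 45 libraries, where the median rho of the 9 was -0.33. In the 13 libraries of at least 10 M reads, a setting chosen after seeing the data, the median was -0.55 and 5 members passed a rho of -0.5, against 31% of its miRNAs.

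Directions elsewhere depended on the scaling. All 9 members had a positive rho in bone, kidney and lung as deposited, but 0, 6 and 9 were positive after miRNA-read scaling and 6, 8 and 8 after median-ratio scaling. In BAT and MAT all 9 were positive under both scalings. In SCAT all 9 were negative as deposited and after miRNA-read scaling, and 2 turned positive after median-ratio scaling. The related miR-106a-363 cluster, of which all 4 members were matched, is given beside them with no test of the difference. Of its 56 pairs 6 passed a rho of 0.5 and 5 passed -0.5, and mmu-miR-20b-5p rose in MAT (0.72), heart (0.56) and BAT (0.52) and fell in marrow (-0.51) and SCAT (-0.52). The passenger arms passed in 0 of 107 pairs, red blood cell miRNAs in 0 of 60, and white blood cell miRNAs rose in 10 of 64.

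**Figure D3:**
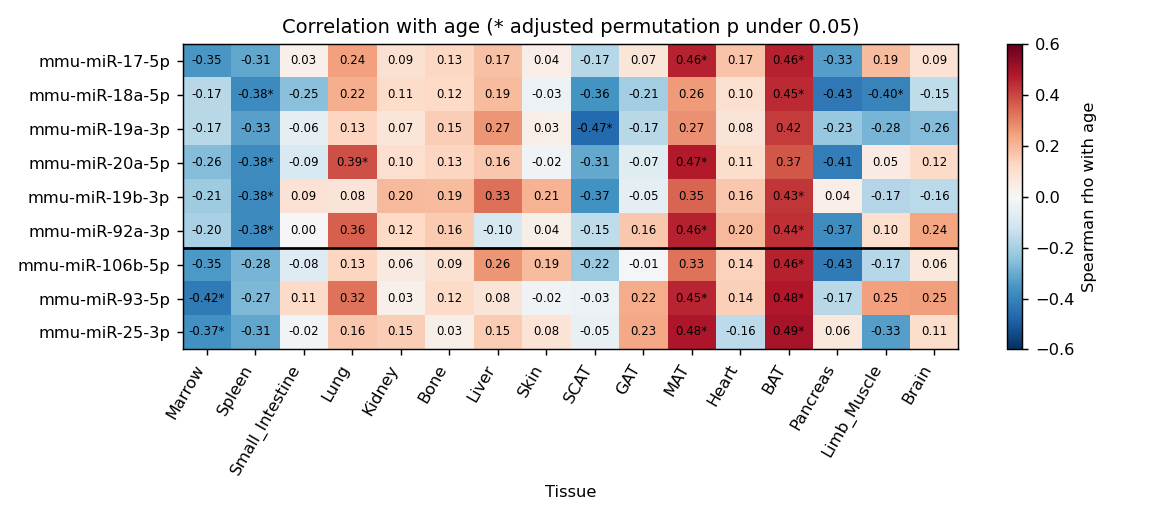
Spearman rho of rpmm with age (numbers and colour) for the 9 miRNAs (rows) in 16 tissues (columns), with asterisks where the adjusted permutation p is under 0.05. BAT and MAT have positive values throughout, up to 0.49 for mmu-miR-25-3p in BAT, and marrow, spleen and, as deposited, SCAT (2 members turn positive after median-ratio scaling) are negative throughout, down to -0.47 for mmu-miR-19a-3p in SCAT.

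The growth phase from 1 to 3 months was compared in 14 tissues, and 1 of 126 tests of the members passed (limma, adjusted p under 0.05), against 1.76% of all miRNAs tested. This was mmu-miR-18a-5p in pancreas, with 77.8, 84.8, 100.6, 128.6 and 131.6 rpmm at 1 month and 1.71, 32.99, 50.1, 55.4 and 66.5 rpmm at 3 months. The 1-month libraries were all higher, by a log2 difference of 1.87 ± 0.54 (SE, limma adjusted p = 0.042), and 2.53% of pancreas miRNAs were called up. The library at 1.71 rpmm was replicate 02, and without it the log2 difference was 1.03 (adjusted p = 0.16). After miRNA-read scaling it was 1.04 (adjusted p = 0.099).

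Between 21 and 3 months, 0 of 126 tests of the members passed with limma, against 3.86% of all miRNAs. At an unadjusted p under 0.05 there were 15, edgeR called 0 and DESeq2 called 6. Over all later ages against 3 months 13 of 1026 tests passed, 12 up and 1 down, against 2.76%, and the 27-month libraries of MAT and liver held 11 of them.

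In MAT at 27 months all 6 members of miR-17-92 were called higher than at 3 months, against 24.4% of the miRNAs of that tissue called up. mmu-miR-20a-5p had 123, 191, 228, 246 and 250 rpmm at 3 months and 611, 730 and 1104 rpmm at 27 months. The values of mmu-miR-17-5p were 86.3, 133, 154, 165 and 169 rpmm at 3 months and 455, 470 and 549 rpmm at 27 months. Neither group overlapped the other, and the log2 differences were 1.97 ± 0.58 (adjusted p = 0.0087) and 1.82 ± 0.47 (adjusted p = 0.0030). mmu-miR-92a-3p had 67.3, 77.6, 82.0, 94.0 and 127 rpmm at 3 months and 199, 354 and 421 rpmm at 27 months (1.81 ± 0.47, adjusted p = 0.0037). mmu-miR-18a-5p, mmu-miR-19a-3p and mmu-miR-19b-3p rose by 1.54 ± 0.51, 1.69 ± 0.48 and 1.44 ± 0.41 on the log2 scale (adjusted p = 0.017, 0.0069 and 0.0074). The 3 members of miR-106b-25 had log2 differences between 0.80 and 1.11 that did not pass, and the difference between the clusters was not tested.

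All 3 MAT libraries of 27 months were closer in miRNA profile to another fat depot, replicates 31 and 53 to GAT and replicate 33 to SCAT, so that no 27-month value was left without them. Their summed white blood cell miRNAs were 10800 to 17000 rpmm against 791 to 1616 rpmm at 3 months, with 4 of 4 called up, and the part of this in the rise was not tested. The defining markers of red blood cells summed to 916 to 3478 rpmm against 425 to 1354 rpmm, and none of the markers of either cell type was at 0. Lists of other tissues moved as well, with 2 of 3 pancreas miRNAs called up (up to 2.29 on the log2 scale) and 2 of 3 limb muscle and 2 of 3 brain miRNAs called down. The 4 members of miR-106a-363 rose as well, by 1.60 to 2.61 on the log2 scale. At 24 months no member of either cluster passed in MAT, and mmu-miR-20a-5p lay between 184 and 304 rpmm.

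In liver at 27 months 5 members were called higher than at 3 months, against 28.1% of its miRNAs called up. mmu-miR-19b-3p had 374, 422, 455 and 462 rpmm at 27 months and 144 to 232 rpmm at 3 months (median 203, n = 6), which do not overlap, with a log2 difference of 1.13 ± 0.33 (adjusted p = 0.0090). mmu-miR-106b-5p had 334, 376, 403 and 418 rpmm against 145 to 384 rpmm (median 193), and the highest 3-month library overlapped (0.90 ± 0.27, adjusted p = 0.012). mmu-miR-18a-5p, mmu-miR-19a-3p and mmu-miR-25-3p rose by 0.84 ± 0.30, 0.91 ± 0.34 and 0.80 ± 0.28 on the log2 scale (adjusted p = 0.031, 0.035 and 0.029). The median of all liver miRNAs shifted by 0.55 in the same contrast, and summed miRNA reads had medians of 387600 and 253800 rpmm. After miRNA-read scaling the shift of all miRNAs was 0.10 and the 5 members were at 0.15 to 0.46, of which none passed. White blood cell miRNAs summed to 1055 to 2291 rpmm against 369 to 1055 rpmm, with 3 of 4 called up. At 6 months mmu-miR-25-3p was the only member of either cluster called in liver, where 14% of miRNAs were called up, with 78.3 to 122 rpmm (median 108) against 40.8 to 111 rpmm (median 54.3), and its log2 difference of 0.71 ± 0.25 (adjusted p = 0.048) was 0.24 after miRNA-read scaling. White blood cell miRNAs had medians of 1001 and 677 rpmm in that contrast, with 1 of 4 called up.

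The fall that passed was that of mmu-miR-92a-3p in limb muscle at 15 months, with 11.3, 14.6, 45.4, 49.3 and 71.2 rpmm against 50.6 to 186 rpmm at 3 months (median 74.5, n = 6). The groups overlapped, the log2 difference was -1.39 ± 0.51 (adjusted p = 0.045) while the median of all miRNAs was -0.45, and 5 of 12 alternative settings kept the call. In the same contrast 22.2% of limb muscle miRNAs were called down. Red blood cell miRNAs summed to 226 to 765 rpmm at 15 months and 545.5 to 2053 rpmm at 3 months, white blood cell miRNAs to 176 to 735 and 530.1 to 1296 rpmm, with 1 of 4 called down in each list, and their part was not tested.

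**Figure D4:**
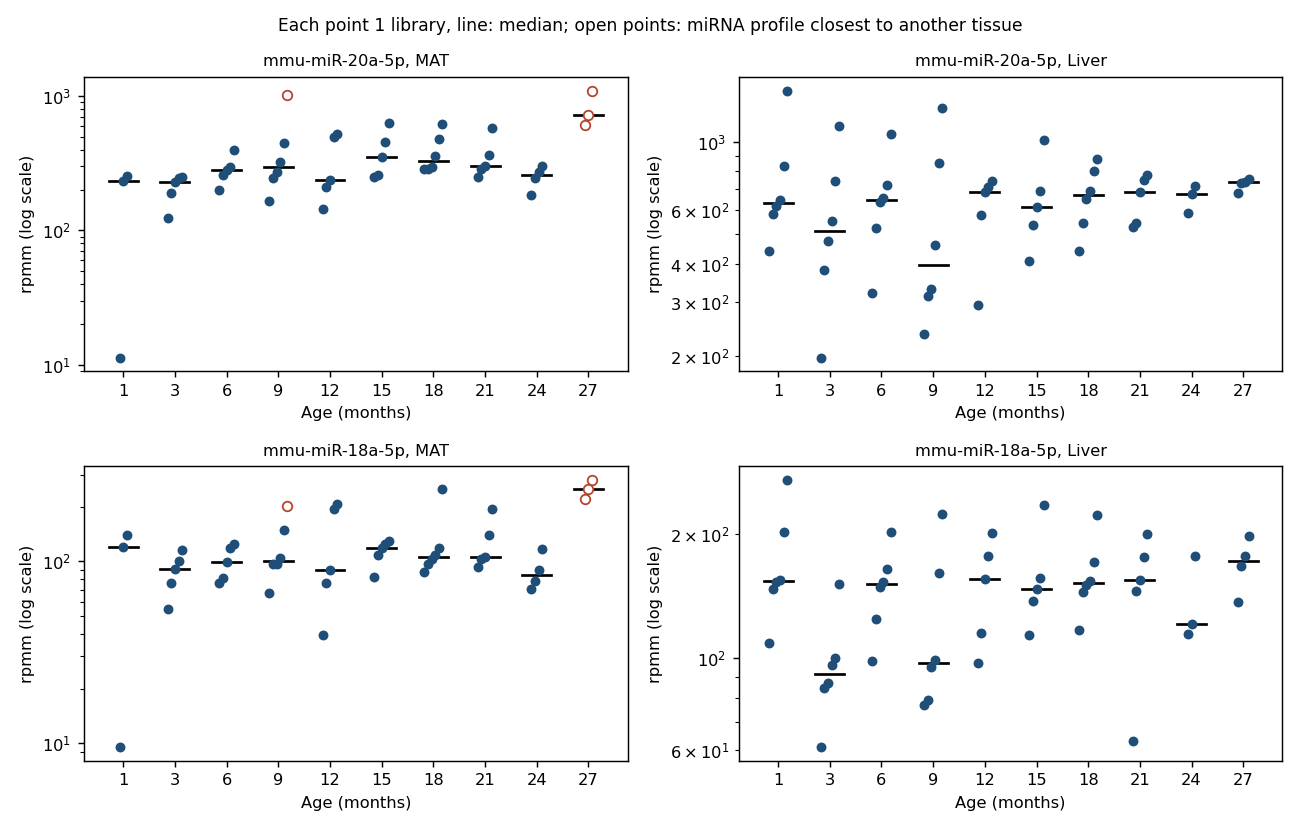
Levels of mmu-miR-20a-5p and mmu-miR-18a-5p (rpmm, log axis) by age in months in MAT and liver, with a point per library, a line at the median and open points for libraries whose profile was closest to another tissue. In MAT all 3 libraries at 27 months are open points and lie at 611 to 1104 rpmm for mmu-miR-20a-5p, above the 123 to 250 rpmm of 3 months.

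Females and males of 1 to 21 months differed in 6 of 144 tests of the members, in skin and limb muscle, against 4.48% of all miRNAs tested. In skin 4 members were higher in females, against 12.7% of its miRNAs called up. mmu-miR-93-5p ranged from 478 to 2575 rpmm in 13 female libraries (median 890) and from 313 to 1063 rpmm in 28 male libraries (median 651), with a log2 difference of 0.67 ± 0.20 (adjusted p = 0.0075). The groups overlapped. mmu-miR-17-5p, mmu-miR-20a-5p and mmu-miR-92a-3p differed by 0.53 ± 0.20, 0.59 ± 0.20 and 0.63 ± 0.20 on the log2 scale (adjusted p = 0.037, 0.019 and 0.013). After miRNA-read scaling mmu-miR-93-5p alone passed (0.44, adjusted p = 0.026), and with the plate named in the deposited annotation as a covariate none did. In skin white blood cell miRNAs summed to 597 to 2281 rpmm in females (median 1317) and 470.0 to 2051 rpmm in males (median 1069), with 2 of 4 called up, and red blood cell miRNAs to 114 to 424 and 58.6 to 908 rpmm, with 0 of 4 called. Their part was not tested.

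In limb muscle mmu-miR-18a-5p and mmu-miR-20a-5p were lower in females, against 5.13% of its miRNAs called down. mmu-miR-18a-5p ranged from 7.45 to 63.8 rpmm in 13 female libraries (median 33.9) and from 15.6 to 192 rpmm in 29 male libraries (median 63.5), a log2 difference of -0.88 ± 0.22 (adjusted p = 0.016). mmu-miR-20a-5p had medians of 127 rpmm in females and 199.8 rpmm in males (-0.88 ± 0.26, adjusted p = 0.035). Neither passed after miRNA-read scaling, where both were at -0.62 (adjusted p = 0.14 and 0.19), nor with the plate as a covariate (-0.65 and -0.57, adjusted p = 0.32 and 0.54). Red blood cell miRNAs had median sums of 599.5 rpmm in females (164 to 1507) and 1107 in males (207 to 2053), with 1 of 4 called down, and white blood cell miRNAs of 444 (124.5 to 920.4) and 573 rpmm (221 to 1296), with 0 of 4 called, and their part was not tested. In limb muscle too the members were lower in shallow libraries, with a median rho with depth of 0.42, and the part of depth was not tested. Tested as an interaction, chosen after seeing these calls, the difference between the sexes differed between skin and limb muscle for 6 members, against 32% of all miRNAs tested, and for 2 after miRNA-read scaling, against 22.3%. The fit took skin and limb muscle libraries as independent, although the study dissected several organs from each mouse.

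In the parabiosis cohort the aged and young partners of heterochronic pairs were compared in 6 tissues. HA exceeded HY in 5 of 54 tests of the members, in kidney and heart, against 9.81% of all miRNAs tested in either direction. In kidney mmu-miR-18a-5p lay between 185 and 224 rpmm in HY (median 194, n = 7) and between 238 and 415 rpmm in HA (median 323, n = 6), without overlap. The isochronic groups lay between 156 and 288 rpmm (IY, median 180, n = 8) and between 164 and 367 rpmm (IA, median 179, n = 8), and both overlapped HA. The log2 difference between HA and HY was 0.67 ± 0.18 (adjusted p = 0.0055), it passed under all 10 alternative settings and without any of the 13 libraries in turn, and 13.8% of kidney miRNAs were called up.

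mmu-miR-17-5p in kidney lay between 468 and 528 rpmm in HY (median 516) and between 590 and 1266 rpmm in HA (median 706), again without overlap (0.56 ± 0.17, adjusted p = 0.016), and the highest HA library, replicate 14A, decided the call, since without it the difference was 0.41 (adjusted p = 0.058). IY lay between 427 and 717 rpmm and IA between 381 and 939 rpmm. mmu-miR-20a-5p lay between 589 and 779 rpmm in HY (median 665) and between 709.5 and 1387 rpmm in HA (median 950.3), with overlap (0.51 ± 0.18, adjusted p = 0.032), and 6 of its 13 calls without a library were lost, with 0.41 (adjusted p = 0.099) without replicate 14A. All 9 members had a positive difference in kidney, with a median of 0.28 on the log2 scale against -0.03 over all miRNAs.

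The X-linked relatives went the other way in the same kidneys. mmu-miR-20b-5p, mmu-miR-106a-5p and mmu-miR-363-3p fell by 0.79, 0.58 and 0.82 on the log2 scale between HY and HA (SE 0.20, 0.18 and 0.21, adjusted p = 0.0038, 0.019 and 0.0043), although mmu-miR-106a-5p differs from mmu-miR-17-5p by U10A alone. The remaining member of that cluster, mmu-miR-18b-5p, differed by -0.22 and did not pass. Over all tissues, 9.81% of miRNAs tested were called in this contrast in either direction. White blood cell miRNAs summed to 1077 to 2817 rpmm in HA and 579 to 1127 rpmm in HY, with 4 of 4 called up by 0.68 to 1.35 on the log2 scale. In IA they summed to 1175 to 2543 rpmm and in IY to 634 to 1423 rpmm, and their part in the difference between HA and HY was not tested.

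In heart mmu-miR-17-5p lay between 148 and 216 rpmm in HY (median 178, n = 7) and between 185 and 454 rpmm in HA (median 226, n = 7), with overlap, and 11% of heart miRNAs were called up. IY lay between 140 and 202 rpmm and IA between 110 and 234 rpmm. mmu-miR-20a-5p lay between 210 and 368 rpmm in HY (median 285) and between 307 and 594 rpmm in HA (median 379). The log2 differences were 0.53 ± 0.18 (adjusted p = 0.032) and 0.52 ± 0.19 (adjusted p = 0.044), and they were 0.39 (adjusted p = 0.11) and 0.43 (adjusted p = 0.13) without HA replicate 14A. The call held in 8 of the 14 fits without 1 library for mmu-miR-17-5p and in 6 of 14 for mmu-miR-20a-5p. White blood cell miRNAs in heart summed to 950 to 2183 rpmm in HA and 723 to 1458 rpmm in HY, with 1 of 4 called up.

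**Figure D5:**
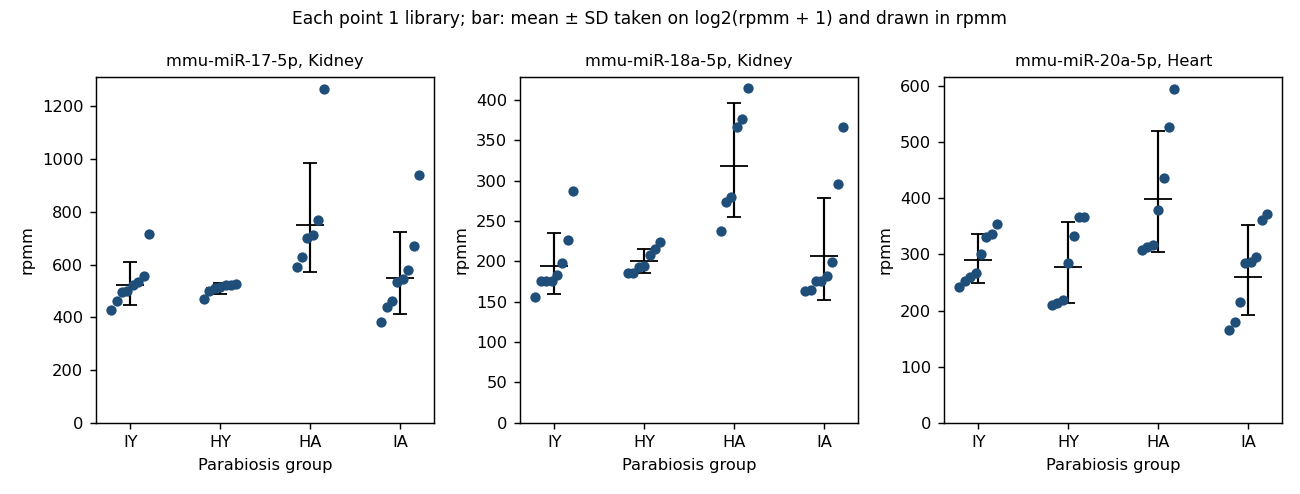
Levels (rpmm) of mmu-miR-17-5p and mmu-miR-18a-5p in kidney and of mmu-miR-20a-5p in heart in the 4 parabiosis groups, with a point per library and a bar at the mean ± SD taken on the log2 scale. In kidney every HA library (238 to 415 rpmm for mmu-miR-18a-5p) lies above every HY library (185 to 224 rpmm), and IA overlaps both.

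Rejuvenation of aged mice by young blood was addressed by HA minus IA, which shares its HA libraries with the contrast above. It passed in 1 of 54 tests of the members, against 0.965% of all miRNAs tested. This was mmu-miR-19a-3p in GAT, where 3.22% of miRNAs were called up, with 32.8 to 70.7 rpmm in HA (median 51.4, n = 7), 20.2 to 39.1 in IA (median 33.4, n = 8), 30.1 to 45.6 in HY and 14.6 to 41.01 in IY. HA and IA overlapped, the log2 difference was 0.68 ± 0.20 (adjusted p = 0.048), and the call held in 3 of the 15 fits without 1 library. White blood cell miRNAs in GAT summed to 732 to 7194 rpmm in HA (median 6078) and 811 to 4628 rpmm in IA (median 2541), with 0 of 4 called, and their part was not tested. In heart mmu-miR-20a-5p and mmu-miR-17-5p differed by 0.61 and 0.57 (adjusted p = 0.063 for both), and in kidney mmu-miR-18a-5p differed by 0.62 (adjusted p = 0.081), which did not pass.

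Accelerated aging of young mice by old blood was addressed by HY minus IY, and 0 of 54 tests of the members passed with limma, as did 0% of all miRNAs. The count at an unadjusted p under 0.05 was 1, mmu-miR-92a-3p in liver (-0.71), and edgeR and DESeq2 called 0. The age difference within isochronic pairs, IA minus IY, also passed in 0 of 54 tests with limma, against 8.13% of all miRNAs tested. At an unadjusted p under 0.05 there were 2, mmu-miR-25-3p (-0.26) and mmu-miR-92a-3p (0.45) in heart, and edgeR and DESeq2 called 0. Whether the age difference was larger in heterochronic than in isochronic pairs was tested as an interaction, a test chosen after seeing the calls. No member passed. The largest among those called above were mmu-miR-20a-5p in heart (0.68 ± 0.25, adjusted p = 0.089) and mmu-miR-18a-5p in kidney (0.58 ± 0.24, adjusted p = 0.32).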

How the data were processed

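Small RNA libraries (MGIEasy kit, BGISEQ-500RS, single-end reads) were mapped by the authors with miRMaster and Bowtie to mm10 and annotated with miRBase, allowing 1 mismatch. The deposited values are normalised signal in reads per 1000000 mapped reads (rpmm), with miRNAs of several precursors represented by the precursor with the highest count. Libraries under 2 M reads were left out by the authors, and 2 small-intestine columns whose names differ from their library were not used. Depths were inferred for each library as 1000000 divided by its smallest nonzero value among the RNAs other than miRNAs, taken as 1 read. Whole reads were recovered from 98.97% (aging) and 98.84% (parabiosis) of miRNA values up to 1000 reads, within 0.05 read of a whole number.

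miRNAs with at least 1 rpmm in 10% of a tissue's libraries were tested on log2(rpmm + 1) with limma 3.58.1 (R 4.3.3, eBayes with trend), and fold changes are on that scale. P-values were adjusted by Benjamini-Hochberg within tissue and contrast, with a threshold of 0.05. edgeR 4.0.16 and DESeq2 1.42.0 on recovered reads were alternatives, as were other scalings, filters, pseudocounts, batch terms and libraries left out. Scripts were checked on simulated data. Groups came from the deposited labels. All 9 members are named in every comparison. Other miRNAs are given by counts of lists, with values where a list member passed a rho of 0.5 in at least 3 tissues or lies in a contrast where a member was called. The members and lists were chosen with earlier results of these data known. Parabiosis partners share a pair number, and the deviations of partners correlated with medians from -0.45 (MAT) to 0.31 (liver), not over 0.1 for every pair in any tissue.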

Additional observations from a re-analysis of the deposited data

Results flagged for a closer look

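A library stood apart from its group in 3 of the 25 groups tested, where chance gives about 1 in 20. mmu-miR-92a-3p in limb muscle at 3 months was 186.1 rpmm in replicate 11, and the next library was at 97.7 rpmm. mmu-miR-17-5p in kidney was 1266 rpmm in HA replicate 14A against 769.3 rpmm in the next HA library, and 717.2 rpmm in IY replicate 16A against 556.9 rpmm in the next IY library.

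The difference between the sexes was not the same in skin and limb muscle for 6 members, by a limma interaction that was chosen after seeing the calls in both tissues, and that passed for 32% of all miRNAs tested. It took the libraries of both tissues as independent, although they can come from the same mice. The log2 difference of female minus male was larger in skin by 1.494 ± 0.38 for mmu-miR-93-5p (adjusted p = 0.0017), 1.478 ± 0.42 for mmu-miR-17-5p (0.0055), 1.473 ± 0.33 for mmu-miR-20a-5p (0.00038), 1.16 ± 0.35 for mmu-miR-106b-5p (0.0079), 1.062 ± 0.35 for mmu-miR-92a-3p (0.017) and 0.9052 ± 0.30 for mmu-miR-18a-5p (0.015). After miRNA-read scaling, mmu-miR-20a-5p (0.98, adjusted p = 0.015) and mmu-miR-93-5p (1.00, adjusted p = 0.025) passed, against 22.3% of all miRNAs.

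Fragments assigned to the host transcript Mir17hg, which no comparison used, were above the limit of 3 reads in 769 of 769 libraries of the aging cohort. Their tissue medians ran from 457 rpmm in brain to 8304 rpmm in marrow. The ratio of the host value to the summed 6 members of miR-17-92 lay between 1.05 and 1.64 (median 1.15). The transcript contains the miRNA sequences, so that reads of the host and of the miRNAs cannot be told apart.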

How the results depend on the processing

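Of the 0 pairs of a member and a tissue past a rho of 0.5 as deposited, there were 4 in males only, 2 after miRNA-read scaling, 2 with set means removed, 2 without libraries closest to another tissue, 4 without the 24- and 27-month libraries, 21 by the adjusted p alone, and 7 without libraries under 10 M reads, a setting chosen after seeing the data (5 in pancreas, all falling). Leaving out each library gave 0 to 8, with 8 without BAT 24 months replicate 23 and 4 without MAT 24 months replicate 34. The count for 1 against 3 months (1) became 4 with DESeq2, 0 with edgeR, 0 in males, 4 with a pseudocount of 10 and 3 with the set as a covariate, and 0 to 7 without a library (7 without Kidney 1 month replicate 09). For 21 against 3 months (0) it became 6 with DESeq2, 1 in males, 4 with median-ratio scaling, 1 with miRNA-read scaling and 1 without misplaced libraries, and 0 to 5 without a library (5 without Liver 21 months replicate 17). For all later ages (13) it became 30 with DESeq2, 21 with miRNA-read scaling, 24 with the plate or the set as a covariate and 8 without misplaced libraries, which removes the 27-month MAT libraries. For the sexes (6) it became 11 with DESeq2, 1 with miRNA-read scaling, 0 with the plate and 3 with the set. HA minus IA (1) became 6 with DESeq2, 2 with edgeR, 2 with median-ratio scaling, 0 with no filter and 0 with a pseudocount of 0.1, and 0 to 4 without a library (4 without Heart HA replicate 11A or Kidney IA replicate 6A). HA minus HY (5) became 10 with DESeq2 and 3 with median-ratio scaling, and 3 to 7 without a library. IA minus IY (0) became 1 with miRNA-read scaling, and it and HY minus IY stayed at 0 without any library. The log2 ratio of mmu-miR-19b-3p to mmu-miR-19a-3p (2.65, median of tissues) was 2.25 with a pseudocount of 10. The cause of these moves was not tested, except where fewer libraries enter. Over the called members, 210 values under another setting kept the call, 78 lost it and none reversed.

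With the pair number as a replicate block the counts were 5 (HA minus HY), 1 (HA minus IA), 0 and 0, and no call changed. The pairing did not hold in the data of every pair, so this is given as a check only. Depth limits pancreas most, where 32 of 45 libraries were under 10 M reads.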

Other observations

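Some within-library ratios between members passed the threshold of 0.5 on rho with age that no member passed in rpmm, which is given as a description. The log2 ratio of mmu-miR-93-5p to mmu-miR-106b-5p in limb muscle had a rho with age of 0.56, and that of mmu-miR-25-3p to mmu-miR-93-5p a rho of -0.55. The ratio of mmu-miR-19b-3p to mmu-miR-19a-3p had a rho of 0.54 in SCAT and 0.52 in GAT. In pancreas the ratio of mmu-miR-25-3p to mmu-miR-106b-5p had a rho of 0.50. These are 5 of 176 pairs of a ratio and a tissue, and whether they rest on single libraries was not tested.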
